A study of Homo sapiens with 24 samples.

Results

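Untreated Huh-7 cells were compared with untreated HepG2 cells, a pair of established human cell lines from liver tumors that are both used as stand-ins for hepatocytes. The members were chosen by their labels, as the control arrays of these lines, 3 of Huh-7 and 3 of HepG2 cells, 6 of the 24 arrays of the series. The series covered 4 lines, the others being HGC-27 (gastric cancer) and HCT-8 (colorectal cancer), each with and without melatonin. The labels put the controls at 0 h of melatonin, whereas the methods describe ethanol-treated cells harvested alongside the cells that had 24 h of melatonin. Both liver lines were grown in DMEM, and the methods name no transgene or knockout for either. The methods call the 3 arrays of a group biological replicates, but no label says whether they came from separate cultures, so the p values measure the spread between these arrays, which may be technical. Each line stands for 1 tumor, so a difference between them is a difference between 2 lines and not between classes of liver cancer.

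Hepatocytes make most proteins of the blood plasma, assemble lipoproteins, clear drugs and bile acids and run the urea cycle. Liver tumor lines keep these functions to different degrees and add fetal genes such as AFP. As background on the lines, HepG2 is known for an intact p53 and for an activating deletion in the beta-catenin gene CTNNB1, and Huh-7 for a missense change in p53 and for its use in growing hepatitis C virus. Genotypes were not measured on the arrays.

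Messenger RNA was measured on customized Affymetrix PrimeView arrays, and the deposited values were log2 intensities that the authors had obtained with RMA, which corrects background, normalizes and summarizes the probes of a probe set. The mean of the probe sets of a gene was taken, which gave 18244 genes. The gene medians of the arrays lay between 3.17 and 3.19 in Huh-7 and between 2.80 and 2.82 in HepG2 cells as deposited, so the 6 arrays were quantile-normalized together before the lines were compared. All values here are log2 intensities after that step, and all differences are Huh-7 minus HepG2. A gene was called when its limma adjusted p (Benjamini-Hochberg over all genes) was under 0.05 and its difference was at least 2-fold. A gene was taken as above background in a line when all 3 arrays exceeded the 95th percentile of 340 olfactory receptor genes, a level of 2.34 to 2.44. Where the dimmer line was not above background on any array, the fold is given as a lower bound, "at least". The bound is for the mean over probe sets, so a single probe set can show less. A call uses the fitted difference, so the bound of a called gene can be under 2-fold. The arrays of a line correlated at 0.998 with each other and at 0.904 to 0.905 with those of the other line, which is across genes. The 3′ minus 5′ signal of the ACTB control probe sets was 0.17 to 0.30 in Huh-7 and 0.16 to 0.38 in HepG2 cells, so RNA integrity by this measure overlapped.

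A total of 2832 genes, 15.5% of those tested, were called between the lines. Of these, 1322 (7.25% of all genes) were higher and 1510 (8.28%) were lower in Huh-7 cells. With the values as deposited the split was 2291 higher and 1010 lower, and the median difference over all genes was then 0.33, against 0.008 after quantile normalization. By the adjusted p alone, 11924 genes (65.4%) passed, and in 12629 genes (69.2%) the arrays of the lines did not overlap. The median SD of a gene over the 3 arrays was 0.07 in each line. At least 4-fold differences were found in 452 higher and 490 lower genes, and at least 16-fold differences in 104 higher and 95 lower genes. Above background were 10230 genes in Huh-7 cells and 10350 genes in HepG2 cells. Of the 11226 genes above background in either line, 2747 (24.5%) were called. Lists with mostly expressed members are to be set against that share. In bulk RNA, fewer cells of a type and less RNA per cell cannot be told apart. Among the called genes, 526 of those higher in Huh-7 cells were not above background in HepG2 cells, and 514 of those lower were not above background in Huh-7 cells. A further 85 called genes were above background in neither line.

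**Figure D1:**
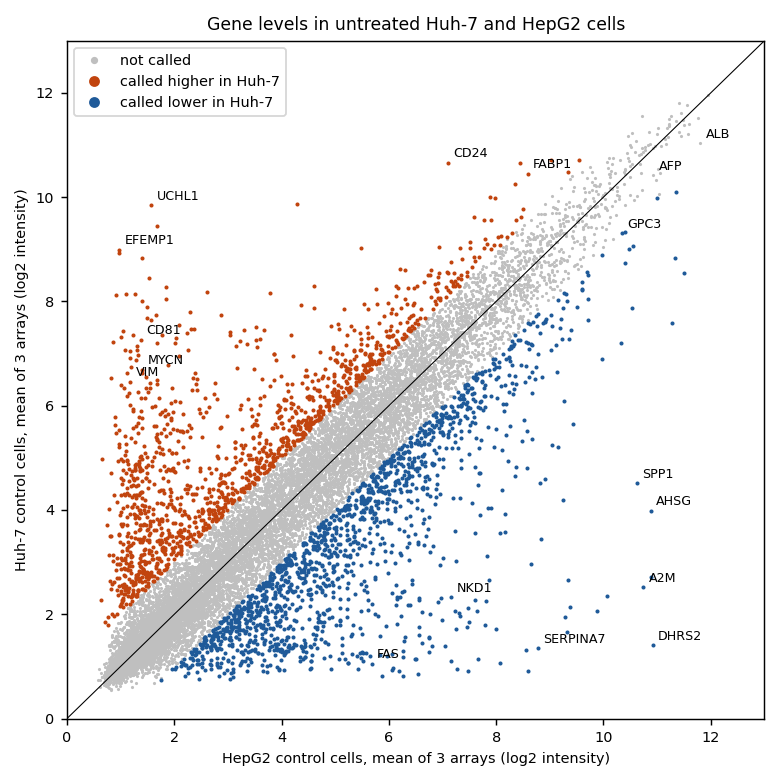
Mean log2 intensity of each gene in control cells, Huh-7 on the vertical and HepG2 on the horizontal axis, 3 arrays each, with the diagonal of equal levels. Orange points are the 1322 genes called higher and blue points the 1510 called lower in Huh-7 cells, and ALB and AFP sit near the diagonal at the top.

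The liver identity of both lines was checked first with albumin and alpha-fetoprotein. ALB, the main plasma protein, measured 11.04, 11.06 and 11.04 in Huh-7 cells, against 11.8, 11.8 and 11.8 in HepG2 cells, a difference of -0.76. It held the same rank on all 3 HepG2 arrays, near the top, so quantile normalization gave it 1 value there and its spread was not measured after that step. As deposited the difference was -0.54 (adjusted p = 9.0e-06). AFP, the fetal counterpart of albumin, measured 10.34, 10.47 and 10.46 in Huh-7 cells, against 10.94, 10.94 and 10.9 in HepG2 cells, a difference of -0.51 (SE 0.055, adjusted p = 4.44e-05). The Huh-7 arrays lay below the HepG2 arrays for both genes, but by less than 2-fold, so neither was called. By ranks within the arrays, where both lay near the top, neither passed (adjusted p = 0.679 for ALB and 0.558 for AFP). The 8 measured hepatocyte markers were above background in both lines, and their median percentile among the genes of an array was 97.5 for Huh-7 cells and 99.4 for HepG2 cells. The median percentile was 14.5 for HGC-27 cells and 25.1 for HCT-8 cells. Of these markers, 5 were lower and 0 higher in Huh-7 cells.

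The promoter of ALB is shown because it holds a match to the binding motif of the liver factor HNF1, and that of FGA, the fibrinogen alpha chain, because it held this motif among the 36 promoters searched of the 54 secreted liver genes that were lower in Huh-7 cells. SP5, a transcription factor induced by beta-catenin, is shown because it held a TCF/LEF motif among the 6 promoters searched of the 13 beta-catenin targets that were lower in Huh-7 cells. The sequences are from RefSeq (GRCh38.p14), with the motif in capitals, which in FGA lies on the opposite strand.
ALB, chr4:73404196-73404264, plus strand, motif 61 to 53 bases before the start: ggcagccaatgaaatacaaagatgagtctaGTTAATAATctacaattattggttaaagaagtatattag
FGA, chr4:154590759-154590827, minus strand, motif 55 to 47 bases before the start: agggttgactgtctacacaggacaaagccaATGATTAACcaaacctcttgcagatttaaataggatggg
SP5, chr2:170715198-170715264, plus strand, motif 109 to 103 bases before the start: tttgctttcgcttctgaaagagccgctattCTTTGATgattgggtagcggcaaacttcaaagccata
GTTAATNAT was searched on both strands in the 250 bases before the start, and found in 5 of the 89 promoters given for the 116 genes of the secreted liver protein lists (5.62%), against 72 of 14472 promoters of all genes tested (0.498%) and 185 of 27195 promoters in all (0.680%). Within the lists it was found in 1 of 36 genes that were lower, 0 of 5 that were higher and 4 of 48 that were not called. FGA differed by -1.18 and ALB by -0.76. CTTTGAT, a TCF/LEF motif chosen after the values were seen, was searched in the same way. It was found in 2 of the 18 promoters given for the 29 beta-catenin targets (11.1%). The shares were 240 of 14472 promoters of all genes tested (1.66%) and 622 of 27195 in all (2.29%). Within the targets it was found in 1 of 6 that were lower, 0 of 1 that was higher and 1 of 11 that were not called. A match is a description of the letters and not a site.

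Plasma proteins were mostly lower in Huh-7 cells. Of 48 measured plasma protein genes, 27 were lower and 4 higher, with a median difference of -1.13, against 0.008 over all genes. As deposited 22 were lower and 4 higher, with a median of -0.87. In treated cells 20 were lower and 4 higher, with a median of -0.70. Without HepG2 melatonin replicate 1 the counts were 21 and 4, with a median of -0.79. AHSG, fetuin-A, measured 4.06, 3.87 and 4.04 in Huh-7 cells, against 10.86, 10.9 and 10.88 in HepG2 cells, a difference of -6.89 (SE 0.064, adjusted p = 2.86e-11). SERPINA7, which carries thyroid hormone, measured 1.52, 1.38 and 1.15 in Huh-7 cells, against 8.85, 8.75 and 8.73 in HepG2 cells, and was at least 83.3-fold lower in Huh-7 cells (adjusted p = 8.3e-11). The thyroid hormone carrier was thus not above background on any Huh-7 array, whereas fetuin-A was. HP, haptoglobin, which binds free hemoglobin, measured 2.3, 2.26 and 2.36 in Huh-7 cells, against 7.01, 6.92 and 6.97 in HepG2 cells, at least 23.8-fold lower in Huh-7 cells. HAMP, the iron hormone hepcidin, differed by -3.85 (SE 0.084, adjusted p = 1.92e-09), and ITIH3, an inter-alpha-trypsin inhibitor chain, was at least 20.3-fold lower. Among the genes that were higher were KNG1, kininogen, which measured 5.88, 5.79 and 5.84 in Huh-7 cells, against 1.79, 1.67 and 1.75 in HepG2 cells, at least 11.1-fold higher, VTN, vitronectin, with a difference of 2.11 (SE 0.080, adjusted p = 5.44e-08), and SAA1, an acute phase protein whose probe sets may share signal with its close relative SAA2.

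Of 38 coagulation and complement genes, 14 were lower and 1 higher, with a median of -0.34. As deposited 11 were lower and 3 higher, with a median of -0.0015, so the shift of the median depends on the scaling. In treated cells 12 were lower and 5 higher, and 11 and 5 without HepG2 melatonin replicate 1. SERPINC1, antithrombin, measured 5.31, 5.26 and 5.19 in Huh-7 cells, against 9.06, 9.0 and 9.06 in HepG2 cells, a difference of -3.78 (SE 0.053, adjusted p = 1.53e-10). CFI, complement factor I, measured 4.79, 4.79 and 4.86 in Huh-7 cells, against 8.62, 8.53 and 8.58 in HepG2 cells, a difference of -3.76 (SE 0.051, adjusted p = 1.23e-10). Both genes were above background in either line, with no overlap of the arrays. PROC, protein C, differed by -3.42, SERPIND1, heparin cofactor II, by -3.69, and F11, coagulation factor XI, was at least 3.02-fold lower. TFPI2, an inhibitor of the tissue factor pathway, was the member that was higher, by at least 2.32-fold. Of 30 lipoprotein genes, 13 were lower and 2 higher, with a median of -0.52, and as deposited 10 and 4, with a median of -0.21. In treated cells 9 of the lipoprotein genes were lower and 3 higher, with a median of -0.36. Without HepG2 melatonin replicate 1 the counts were 10 and 3, with a median of -0.65. APOB, the scaffold of very low density lipoprotein, measured 6.62, 6.71 and 6.59 in Huh-7 cells, against 9.15, 9.14 and 9.09 in HepG2 cells, a difference of -2.49 (SE 0.053, adjusted p = 1.76e-09). APOH measured 8.54 ± 0.041 in Huh-7 cells and 11.50 ± 0.043 in HepG2 cells (SD, n = 3 each), and APOM, which carries sphingosine 1-phosphate, differed by -2.77. LCAT, which esterifies cholesterol on lipoproteins, was at least 6.45-fold lower. The lipoprotein genes that were higher were PLTP, the phospholipid transfer protein (1.54), and PON1, paraoxonase (at least 1.94-fold).

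**Figure D2:**
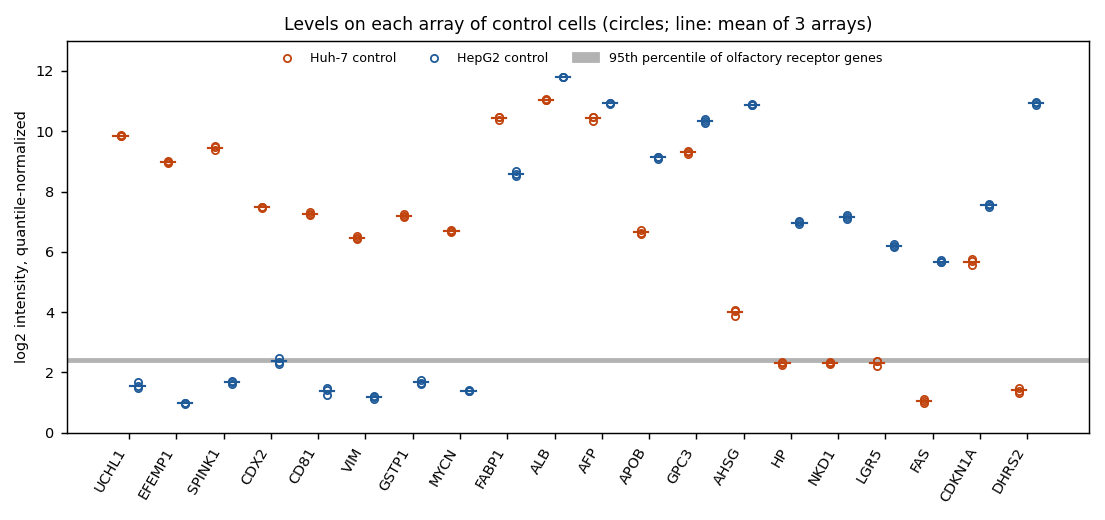
Log2 intensity of 20 genes on each of the 3 Huh-7 (orange) and 3 HepG2 (blue) control arrays, with a line at each mean and a grey band at the background level of 2.34 to 2.44. UCHL1 sits at 9.84 to 9.86 in Huh-7 and below background in HepG2 cells, DHRS2 the other way round, and ALB and AFP are high in both.

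The largest single differences were not in liver functions alone. The 15 genes with the largest differences toward Huh-7 cells ran from 6.31 to 8.29, and in all 15 HepG2 cells were not above background, so that these fitted differences depend on the background level. UCHL1, a ubiquitin hydrolase known from neurons, measured 9.86, 9.84 and 9.85 in Huh-7 cells, against 1.67, 1.55 and 1.48 in HepG2 cells, at least 179-fold higher in Huh-7 cells (adjusted p = 2.11e-11). EFEMP1, an extracellular matrix protein, measured 8.99, 9.02 and 8.96 in Huh-7 cells, against 0.98, 0.96 and 0.99 in HepG2 cells, at least 98.3-fold higher. ME1, malic enzyme, which supplies NADPH, measured 8.87, 9.0 and 8.94 in Huh-7 cells, against 1.07, 0.89 and 0.97 in HepG2 cells, at least 94.8-fold higher. In each case the arrays of a line lay close together and far from those of the other line. SPINK1, a trypsin inhibitor often raised in liver tumors, was at least 135-fold higher, PLBD1, a phospholipase-like protein of lysosomes, at least 88.0-fold, and CXCL5, a chemokine for neutrophils, at least 54.1-fold. GOLM1, a Golgi protein used as a serum marker of liver cancer, was at least 49.7-fold higher. The carbonic anhydrases CA2 and CA4 were at least 68.0-fold and 59.9-fold higher. NTS, the gut peptide neurotensin, GUCY2C, the intestinal guanylin receptor, and PI3, the elastase inhibitor elafin, were also among the 15, as were HTATIP2, ATL3 and CLRN3.

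The 15 genes with the largest differences toward HepG2 cells ran from -6.52 to -9.51, and in 11 of them Huh-7 cells were not above background. DHRS2, a dehydrogenase/reductase, measured 1.32, 1.49 and 1.4 in Huh-7 cells, against 10.88, 10.92 and 10.96 in HepG2 cells, at least 367-fold lower in Huh-7 cells (adjusted p = 1.52e-11). A2M, the protease inhibitor alpha-2-macroglobulin, measured 2.4, 2.55 and 2.62 in Huh-7 cells, against 10.84, 10.66 and 10.72 in HepG2 cells, a difference of -8.22 (SE 0.075, adjusted p = 2.86e-11). In Huh-7 cells A2M lay just over the background level on all 3 arrays. AKR1B10, an aldo-keto reductase of retinal and lipid aldehydes, differed by -8.17, and its close relative AKR1B15 by at least 126-fold, though probes of these 2 genes may share signal. MT1G, a metallothionein, was at least 203-fold lower, with the same limit for the metallothionein family. IGFBP1, which the liver secretes to bind insulin-like growth factors, measured 0.76, 1.01 and 0.95 in Huh-7 cells, against 8.73, 8.6 and 8.46 in HepG2 cells, at least 73.4-fold lower. HPD, which degrades tyrosine, was at least 71.4-fold lower. DLK1 and PEG3, a pair of imprinted genes, were at least 121-fold and 50.8-fold lower. MAGED1, an adaptor of the MAGE family, PBDC1 and CRYAA, a lens chaperone, were also not above background in Huh-7 cells, whereas LGALS1, galectin-1, measured 2.66 ± 0.094 in Huh-7 cells and 9.34 ± 0.078 in HepG2 cells (SD, n = 3 each).

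Fetal and tumor markers divided between the lines. Of 24 oncofetal genes, 7 were higher and 5 lower, and as deposited 8 and 3. CD24, a surface protein of progenitor cells, measured 10.66, 10.63 and 10.68 in Huh-7 cells, against 7.19, 7.07 and 7.03 in HepG2 cells, a difference of 3.56 (SE 0.057, adjusted p = 3.23e-10). PROM1, the progenitor marker CD133, differed by 3.56, SOX4, a transcription factor of progenitors, by 2.69, and SALL4, a fetal liver factor, by 1.93. GPC3, glypican-3, a marker of liver cancer, measured 9.34, 9.31 and 9.26 in Huh-7 cells, against 10.28, 10.4 and 10.34 in HepG2 cells, a difference of -1.03 (SE 0.054, adjusted p = 4.05e-07). That call was close to the 2-fold limit and was not made with the values as deposited or in the fit with the treated arrays. KRT19, a keratin of biliary and progenitor cells, differed by -1.67. PRAME was the single one of 24 cancer-testis antigens that was called, at least 8.72-fold higher in Huh-7 cells.

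Drug metabolism genes differed in both directions, also between members of one enzyme family. Of 69 phase I genes, 11 were higher and 18 lower, and of 46 phase II genes, 7 were higher and 9 lower. UGT2B7 measured 1.71, 1.83 and 1.85 in Huh-7 cells, against 7.73, 7.84 and 7.81 in HepG2 cells, at least 42.1-fold lower in Huh-7 cells, and UGT2B10 at least 26.9-fold lower. These glucuronosyltransferases, which make drugs and steroids soluble, are near-identical in sequence, so their probes may share signal. GSTP1, a glutathione transferase, measured 7.16, 7.2 and 7.24 in Huh-7 cells, against 1.76, 1.63 and 1.66 in HepG2 cells, at least 28.5-fold higher in Huh-7 cells. GSTT1, of another glutathione transferase class, measured 2.16, 1.9 and 2.04 in Huh-7 cells, against 7.38, 7.23 and 7.33 in HepG2 cells, at least 30.2-fold lower. The 2 transferases were thus above background in opposite lines. ADH4, an alcohol dehydrogenase, was at least 17.7-fold lower, whereas ADH1C, of the class that clears most ethanol, was at least 2.93-fold higher. CYP24A1, which degrades vitamin D, was at least 14.5-fold lower, and CYP2R1, which makes 25-hydroxyvitamin D, at least 8.06-fold higher. NAT2, an acetyltransferase of drugs, differed by 2.02, and NNMT, which methylates nicotinamide, was at least 4.73-fold higher. CYP3A4, the main drug-metabolizing cytochrome of adult liver, was not above background in either line, with 1.2, 1.2 and 1.34 in Huh-7 cells, against 1.83, 1.69 and 1.75 in HepG2 cells.

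Transporters, bile acid genes and liver transcription factors were called as follows. Of 38 transporter genes, 3 were higher and 13 lower. ABCC2, the canalicular pump for conjugated bilirubin, measured 5.3, 5.37 and 5.49 in Huh-7 cells, against 7.63, 7.62 and 7.63 in HepG2 cells, a difference of -2.24 (SE 0.059, adjusted p = 5.67e-09). ABCG5, a sterol pump, was at least 12.6-fold lower, and SLC2A1, the glucose transporter GLUT1, differed by -3.54. SLC10A1, the bile acid importer that hepatitis B virus uses for entry, was not above background in either line. Of 25 bile acid genes, 3 were higher and 6 lower, and as deposited 4 and 5. NR0B2, the repressor SHP that bile acids induce, measured 3.4, 3.7 and 3.65 in Huh-7 cells, against 8.23, 8.12 and 8.16 in HepG2 cells, a difference of -4.59 (SE 0.082, adjusted p = 5.69e-10). FGF19, the hormone that represses bile acid synthesis, measured 5.36, 5.26 and 5.48 in Huh-7 cells, against 1.55, 1.86 and 1.6 in HepG2 cells, at least 7.99-fold higher in Huh-7 cells. KLB, the co-receptor of FGF19, differed by -1.35, and CYP27A1, an enzyme of the alternative bile acid pathway, by -2.05. KLB was not called with the brightest probe set, and in treated cells it differed by -0.29 (limma adjusted p = 0.0701). Of 48 transcription factor genes, 10 were higher and 6 lower, and as deposited 15 and 5. GATA6, an endoderm factor, measured 7.45, 7.51 and 7.39 in Huh-7 cells, against 3.77, 3.58 and 3.68 in HepG2 cells, a difference of 3.77 (SE 0.064, adjusted p = 4.32e-10). NR5A2 (LRH-1) differed by 2.26, CREB3L3 by 2.70 and PPARG by 1.93, whereas TBX3 differed by -2.52 and the sugar-sensing factor MLXIPL (ChREBP) by -1.76. PPARGC1A, a coactivator of gluconeogenesis and mitochondria, was at least 1.80-fold lower.

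Genes of central metabolism were called in both directions, in counts to be set against the 24.5% called among all expressed genes. Of 49 glucose and fructose genes, 2 were higher and 16 lower, and as deposited 5 and 10. PFKM, the muscle form of phosphofructokinase, measured 8.19, 8.2 and 8.16 in Huh-7 cells, against 2.75, 2.6 and 2.46 in HepG2 cells, a difference of 5.58 (SE 0.074, adjusted p = 1.13e-10). PFKP, the platelet form of the same enzyme, was at least 3.27-fold lower. KHK, which starts fructose breakdown and was above background on 2 of the 3 Huh-7 arrays, differed by -3.07, and PCK2, the mitochondrial PEP carboxykinase, by -2.42. Of 59 fatty acid genes, 50 of them above background in either line, 10 were higher and 8 lower. FABP1, the liver fatty acid binding protein, measured 10.45 ± 0.058 in Huh-7 cells and 8.59 ± 0.079 in HepG2 cells (SD, n = 3 each), a difference of 1.86. MGLL, which splits monoacylglycerol, was at least 32.4-fold higher and AGPAT2, an enzyme of triglyceride synthesis, differed by 3.83, whereas ACSL1, an acyl-CoA synthetase, differed by -3.10 and CIDEB, which loads lipoproteins with lipid, by -3.03. Of 25 cholesterol synthesis genes, 3 were higher and 3 lower, and as deposited 4 and 2. All 25 were above background in either line, so this list lay near the 24.5% called among all such genes. INSIG1, which holds the sterol sensor in the endoplasmic reticulum, was at least 18.2-fold higher, and its relative INSIG2 differed by -2.10. Of 54 urea cycle and amino acid genes, 6 were higher and 11 lower, and as deposited 9 and 9. BCAT2, the mitochondrial aminotransferase of branched-chain amino acids, measured 7.48, 7.44 and 7.42 in Huh-7 cells, against 3.22, 3.51 and 3.16 in HepG2 cells, a difference of 4.15 (SE 0.090, adjusted p = 1.8e-09). MAT1A, the adult liver form of methionine adenosyltransferase, differed by -2.29, and CBS, which makes cystathionine, by 1.64.

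**Figure D3:**
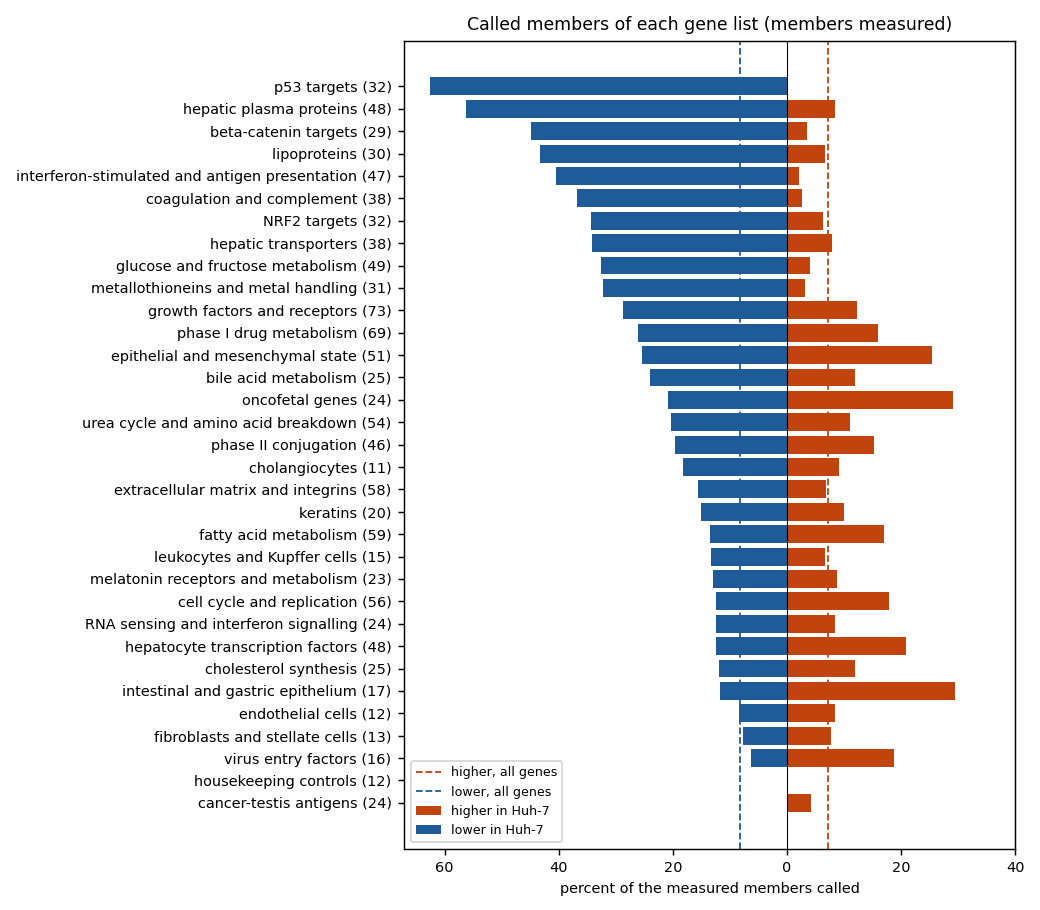
Percent of the measured members of each gene list that were called higher (orange, right) or lower (blue, left) in Huh-7 cells, with dashed lines at 7.25% higher and 8.28% lower over all genes. The p53 targets, plasma proteins, beta-catenin targets and lipoproteins reach farthest to the left, and the gut epithelium markers and oncofetal genes farthest to the right. The gut bar to the right includes a called gene that was above background in neither line.

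Targets of p53, a tumor suppressor that answers DNA damage, were lower in Huh-7 cells in 20 of 32 measured genes and higher in 0, with a median difference of -1.41. As deposited 17 were lower and 1 higher, with a median of -1.04. CDKN1A, the cell cycle inhibitor p21, measured 5.57, 5.68 and 5.78 in Huh-7 cells, against 7.49, 7.58 and 7.57 in HepG2 cells, a difference of -1.86 (SE 0.064, adjusted p = 3.1e-08). FAS, a death receptor, measured 1.04, 1.11 and 1.0 in Huh-7 cells, against 5.65, 5.73 and 5.65 in HepG2 cells, at least 9.71-fold lower in Huh-7 cells. PHLDA3, an inhibitor of AKT, measured 2.41, 2.41 and 2.48 in Huh-7 cells, against 6.32, 6.2 and 6.2 in HepG2 cells, a difference of -3.81 (SE 0.055, adjusted p = 1.73e-10). The arrays of the lines did not overlap for any of these 3 genes, and PHLDA3 was above background on 2 of the 3 Huh-7 arrays. GDF15, a stress cytokine, differed by -2.49, ZMAT3, an RNA-binding protein, by -2.35, TP53INP1, an autophagy and apoptosis protein, by -2.25, and SUSD6 by -2.62. In the melatonin-treated arrays of the same lines, 9 of the 32 genes were lower and 1 higher, with a median of -0.78, and without HepG2 melatonin replicate 1, which stood apart, 11 were lower and 1 higher, with a median of -0.69.

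Targets of beta-catenin, the effector of Wnt signaling, were lower in 13 of 29 genes and higher in 1, with a median of -0.63. As deposited 12 were lower and 3 higher, with a median of -0.33. In treated cells 13 were lower and 2 higher, and 14 and 2 without HepG2 melatonin replicate 1. NKD1, a feedback inhibitor of the pathway, measured 2.32, 2.36 and 2.3 in Huh-7 cells, against 7.08, 7.17 and 7.23 in HepG2 cells, at least 27.1-fold lower in Huh-7 cells. LGR5, the receptor for R-spondins and a stem cell marker, measured 2.37, 2.23 and 2.39 in Huh-7 cells, against 6.14, 6.28 and 6.18 in HepG2 cells, a difference of -3.87 (SE 0.063, adjusted p = 3.31e-10). AXIN2, a widely used reporter gene of the pathway, measured 1.42, 1.43 and 1.42 in Huh-7 cells, against 4.25, 4.38 and 4.08 in HepG2 cells, at least 3.57-fold lower. All 3 were above background on every HepG2 array, whereas in Huh-7 cells LGR5 exceeded that level on 1 of 3 arrays and the others on 0. NOTUM, a secreted inactivator of Wnt ligands, was at least 30.5-fold lower, and SP5 differed by -3.82 (SE 0.063, adjusted p = 3.68e-10). BMP4 differed by -3.06 and TNFRSF19 by -3.04. WIF1, a secreted Wnt inhibitor, was the member that was higher, at least 1.80-fold. CTNNB1 itself measured 8.07, 8.02 and 7.81 in Huh-7 cells, against 7.56, 7.62 and 7.54 in HepG2 cells, a difference of 0.40 (SE 0.074, adjusted p = 0.00144) that was under 2-fold.

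Interferon-stimulated and antigen presentation genes were lower in 19 of 47 and higher in 1, with a median of -0.67. As deposited 17 were lower and 1 higher, with a median of -0.39. In treated cells 17 were lower and 2 higher, and 20 and 2 without HepG2 melatonin replicate 1. BST2 (tetherin), which holds virus particles at the cell surface, measured 1.27, 1.24 and 1.1 in Huh-7 cells, against 6.03, 5.91 and 5.93 in HepG2 cells, at least 11.8-fold lower in Huh-7 cells. TAP1, which carries peptides to class I molecules, measured 1.79, 1.7 and 1.83 in Huh-7 cells, against 6.01, 5.88 and 5.94 in HepG2 cells, at least 11.7-fold lower. PSMB8, an immunoproteasome subunit, was at least 8.06-fold lower, MX2 at least 5.66-fold and OAS1, a sensor of double-stranded RNA, at least 3.04-fold. HLA-C was at least 6.49-fold lower, though class I genes are near-identical and polymorphic, so probes may read the alleles of the lines unequally. Probe sets differed in size, from -6.39 to -0.24 for BST2, -6.50 to -0.30 for PSMB8 and -6.19 to -0.93 for HLA-C. Those of TAP1 ran from -4.96 to -3.43, all with the array medians aligned. HERC5, the ligase for ISG15, was the member that was higher, at least 2.29-fold. Of 24 genes of RNA sensing and interferon signaling, 2 were higher and 3 lower, and as deposited 3 and 2. In this list 20 genes were above background in either line, where 24.5% of all genes were called. The RNA sensors RIGI and IFIH1 (MDA5) were at least 2.81-fold and 1.35-fold lower, IRF9 differed by -1.23, IRF3 by 1.23 and IKBKE by 1.49. TLR3, an endosomal RNA sensor, was not above background in either line, with 0.97, 1.04 and 1.07 in Huh-7 cells, against 0.84, 0.65 and 0.84 in HepG2 cells.

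**Figure D4:**
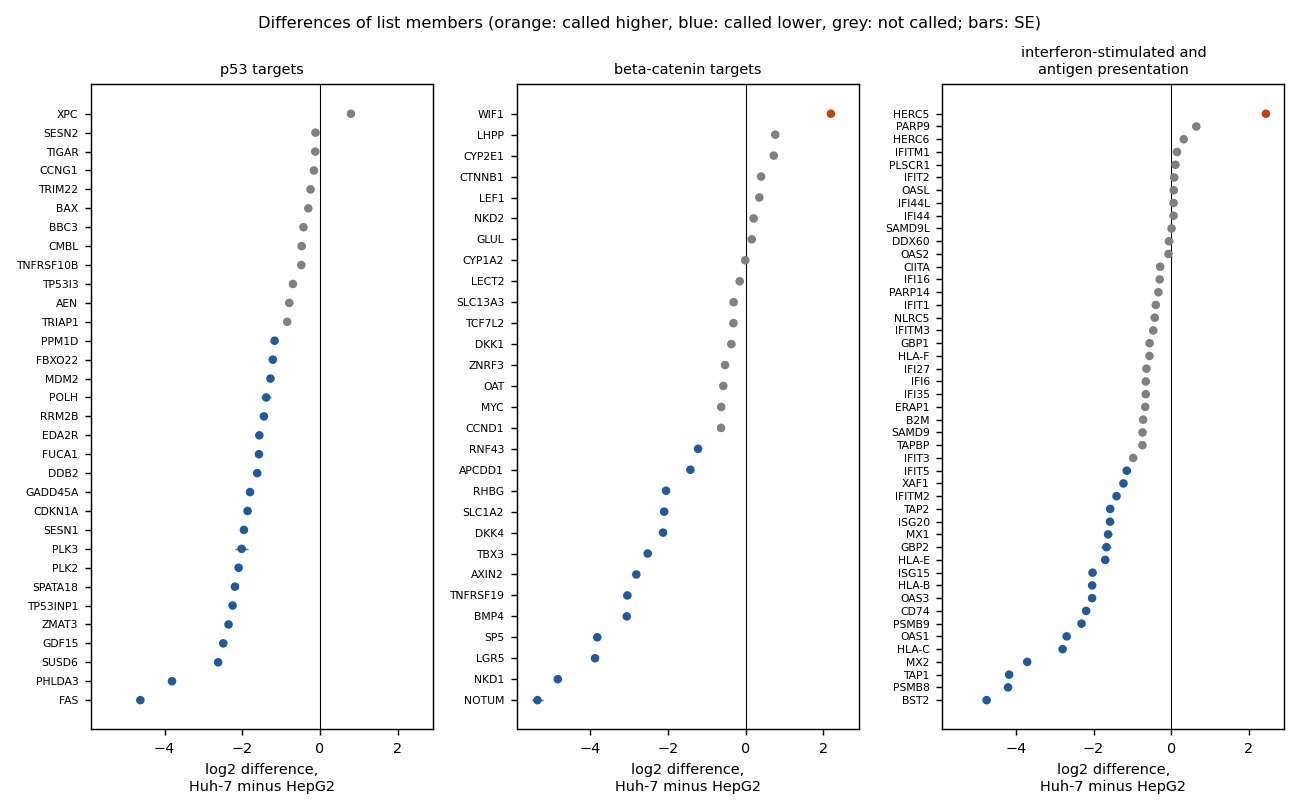
Log2 difference (Huh-7 minus HepG2, horizontal axis) of each measured p53 target, beta-catenin target and interferon-stimulated or antigen presentation gene, with the standard error as a bar. Of these, 20 of 32, 13 of 29 and 19 of 47 were called lower in Huh-7 cells, and FAS, NOTUM and BST2 lie farthest to the left.

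Of 16 entry factors of hepatitis viruses, 3 were higher in Huh-7 cells and 1 lower, and as deposited 6 and 1. In this list 14 genes were above background in either line, where 24.5% of all genes were called, so its count lay near that share. The median difference of the list was 0.02. CD81, a tetraspanin that hepatitis C virus needs for entry, measured 7.23, 7.25 and 7.32 in Huh-7 cells, against 1.26, 1.48 and 1.41 in HepG2 cells, at least 29.8-fold higher in Huh-7 cells. The other entry factors that were higher were the tight junction proteins CLDN1 (1.54) and OCLN (1.15). CLDN6, a fetal claudin, measured 1.84, 1.85 and 1.68 in Huh-7 cells, against 5.2, 5.45 and 5.36 in HepG2 cells, at least 7.67-fold lower.

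Of 51 genes of the epithelial and mesenchymal state, 13 were higher and 13 lower, and as deposited 18 and 13, without a count by class. VIM, vimentin, the intermediate filament of mesenchymal cells, measured 6.51, 6.45 and 6.42 in Huh-7 cells, against 1.18, 1.23 and 1.12 in HepG2 cells, at least 17.0-fold higher in Huh-7 cells. CDH1, E-cadherin, which joins epithelial cells, measured 6.52, 6.45 and 6.35 in Huh-7 cells, against 2.85, 2.75 and 2.69 in HepG2 cells, a difference of 3.68 (SE 0.066, adjusted p = 6.17e-10). CDH2, N-cadherin, measured 6.65, 6.68 and 6.53 in Huh-7 cells, against 2.5, 2.34 and 2.33 in HepG2 cells, a difference of 4.23 (SE 0.067, adjusted p = 2.87e-10). CDH2 was above background on 1 of the 3 HepG2 arrays, and vimentin and both cadherins were higher in the same line. TGFBI differed by -5.40, S100A6 by -5.04 and S100A4 by -3.63, while SPARC and TAGLN, an actin-binding protein, were at least 17.9-fold and 33.5-fold lower. Of 58 matrix and integrin genes, 4 were higher and 9 lower, and as deposited 5 and 7. SPP1, osteopontin, measured 4.53, 4.53 and 4.49 in Huh-7 cells, against 10.6, 10.63 and 10.62 in HepG2 cells, a difference of -6.10 (SE 0.046, adjusted p = 2.11e-11). COL2A1, a cartilage collagen, was at least 36.1-fold higher, and COL9A3, above background on 2 of the 3 Huh-7 arrays, differed by -5.22. Of 20 keratin genes, 2 were higher and 3 lower, as deposited 3 and 2, among them KRT15, at least 7.17-fold higher, and KRT23, with a difference of -3.19. In treated cells KRT15 differed by only 0.30 (limma adjusted p = 0.0725) and was not called, whereas KRT23 differed by -2.68.

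Growth factor genes were higher in 9 and lower in 21 of 73. BMP2 measured 6.74, 6.74 and 6.76 in Huh-7 cells, against 1.21, 1.15 and 1.23 in HepG2 cells, at least 20.8-fold higher in Huh-7 cells, while BMP4 was lower. FST, follistatin, an inhibitor of activins, measured 3.12, 3.14 and 3.11 in Huh-7 cells, against 7.86, 7.77 and 7.86 in HepG2 cells, a difference of -4.70 (SE 0.050, adjusted p = 4.4e-11). GRB14, an adaptor that dampens insulin signaling, differed by 3.99, TGFA was at least 3.38-fold lower, and ASGR1, a subunit of the asialoglycoprotein receptor, differed by -3.16. Of 56 cell cycle genes, 10 were higher and 7 lower, and as deposited 16 and 3. Above background in either line were 53 of them, where 24.5% of all genes were called. MYCN, a MYC family factor, measured 6.69, 6.72 and 6.65 in Huh-7 cells, against 1.39, 1.4 and 1.4 in HepG2 cells, at least 19.9-fold higher. CDKN2A, the locus of p16 and ARF, measured 7.18, 7.12 and 7.12 in Huh-7 cells, against 3.17, 3.18 and 3.13 in HepG2 cells, a difference of 3.98 (SE 0.049, adjusted p = 7.62e-11). A mean over probe sets does not separate the p16 and ARF transcripts. MCM6, a subunit of the replicative helicase, differed by 2.32 and CDK6 by -1.37.

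Of 32 NRF2 targets, genes of the oxidative stress response, 2 were higher and 11 lower, with a median of -0.50. The members that were lower included the aldo-keto reductases AKR1C1 (-3.68) and AKR1C3 (at least 10.8-fold), whereas ME1 was higher. The 2 probe sets of AKR1C3 disagreed, at -8.68 and 0.08 with the array medians aligned, so its bound rests on 1 of them. Of 31 metal handling genes, 1 was higher and 10 lower. MT1E measured 4.18, 4.92 and 4.67 in Huh-7 cells, against 8.9, 8.93 and 8.91 in HepG2 cells, a difference of -4.32 (SE 0.16, adjusted p = 4.79e-08). SLC39A4, a zinc importer, was at least 28.9-fold lower. Of 23 genes of melatonin receptors and metabolism, 2 were higher and 3 lower, and as deposited 3 and 3. MTNR1A and MTNR1B, the melatonin receptors, were not above background in either line, with MTNR1A at 1.6, 1.7 and 1.7 in Huh-7 cells, against 2.06, 1.71 and 1.91 in HepG2 cells. AFMID, of tryptophan breakdown, differed by -2.18, and the nuclear receptor RORA was at least 1.47-fold lower.

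Markers of other cell types were set beside these results. Of 17 markers of gut epithelium, 5 were higher and 2 lower in Huh-7 cells, and as deposited 5 and 1. Only 6 of the 17 were above background in either line, so the higher count includes a gene above background in neither line. CDX2, the intestinal master regulator, measured 7.49, 7.48 and 7.46 in Huh-7 cells, against 2.29, 2.47 and 2.34 in HepG2 cells, a difference of 5.11 (SE 0.059, adjusted p = 5.72e-11), and was above background on 1 of the 3 HepG2 arrays. CDH17, a cadherin of liver and intestine, measured 7.12, 7.17 and 7.14 in Huh-7 cells, against 1.37, 1.33 and 1.25 in HepG2 cells, at least 27.4-fold higher. The trefoil peptides TFF1 and TFF2 were at least 12.9-fold and 16.8-fold higher, whereas PGC, a stomach protease precursor, was at least 15.5-fold lower and VIL1, villin, differed by -1.04. The 5 probe sets of PGC ran from -5.76 to -0.28 with the array medians aligned. The linear intensity summed over the 17 genes was 539 to 548 in Huh-7 cells and 192 to 199.8 in HepG2 cells. Huh-7 cells had 5 of these genes above background and HepG2 cells 2. The median percentile of the gut list was 33.8 for Huh-7 cells and 23.5 for HepG2 cells, against 38.2 for HCT-8 and 19.1 for HGC-27 cells. The 11 cholangiocyte markers summed to 1363 to 1375 in Huh-7 cells and 3074 to 3141 in HepG2 cells, with 5 above background in each line. SPP1 and KRT19 made up 50.7% and 27.2% of the sum in HepG2 cells, EPCAM 64.9% of that in Huh-7 cells, and TFF3 was higher in Huh-7 cells by 3.34. The median difference of the list was -0.05. Of 12 endothelial markers, 1 was above background in each line. Of 13 fibroblast and stellate cell markers, Huh-7 cells had 1 above background and HepG2 cells had 3. Of 15 leukocyte markers, 3 were above background in each line, with sums of 310 to 337 in Huh-7 cells and 1519 to 1601 in HepG2 cells. LYZ, lysozyme, made up 72.3% of the sum in Huh-7 and 95.4% in HepG2 cells, at log2 levels of 7.87 ± 0.081 in Huh-7 cells and 10.54 ± 0.040 in HepG2 cells (SD, n = 3 each). The part of these markers in the other differences was not tested. None of 12 housekeeping genes was called, but by the adjusted p alone 6 were higher and 5 lower, with a median difference of 0.19. As deposited 1 of them was called higher. In treated cells without HepG2 melatonin replicate 1, 1 was called lower.

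The differences were looked for again on the 6 melatonin-treated arrays of the same lines, which the comparison above did not use. There 2830 genes (15.5%) were called, 1375 higher and 1455 lower. Of the 2832 genes called in the controls, 2799 (98.8%) lay on the same side in treated cells, 2073 (73.2%) were also called on that side, and 0 were called on the other. The treated cells come from the same lines, so this count concerns the arrays and the treatment and adds no further line. Of the 30 genes with the largest differences, 15 of the 15 higher and 14 of the 15 lower ones were called on the same side, the exception being CRYAA, with a difference of -4.05. One treated array, HepG2 melatonin replicate 1, correlated at 0.954 to 0.955 with the other treated HepG2 arrays, which correlated at 0.998 with each other. Without it, CRYAA was called on that side too, with a fitted difference of -6.02 (adjusted p = 6.72e-09), and 2179 of the 2832 genes were called on the same side.

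Differences were also unequal over the chromosomes, as a description of genes above background in either line. The median difference over these genes was 0.05. Genes on chromosome 20 had a median of -0.54, with 78 of 335 lower and 20 higher. Medians were -0.34 on chromosome 16, -0.33 on chromosome 14 and -0.26 on chromosome 2, each with more genes lower than higher. The highest medians were 0.27 on chromosome 19, 0.26 on chromosome 12 and 0.23 on chromosome 7. In melatonin-treated cells chromosome 20 again had the lowest median, -0.44, with -0.38 on chromosomes 16 and 14. Copy number was not measured.

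**Figure D5:**
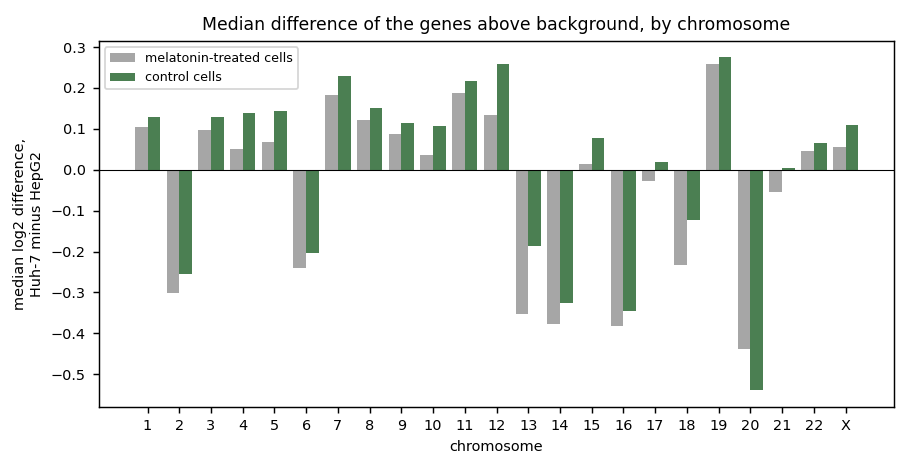
Median log2 difference (Huh-7 minus HepG2, vertical axis) of the genes above background on each chromosome, in melatonin-treated (grey) and control (green) cells. Chromosome 20 has the lowest bars, -0.44 in treated and -0.54 in control cells, and chromosome 19 the highest in both.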

How the data were processed

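Messenger RNA was measured on 24 customized Affymetrix PrimeView arrays, of which the 6 control arrays of Huh-7 and HepG2 cells are compared here. The authors deposited log2 intensities per probe set made by robust multichip analysis (RMA), whose background correction and quantile step act on the arrays processed together. The gene medians of the lines differed, so the lines look normalized separately, and how this was done is not given in the sources used here. Any difference in array processing between lines cannot be told apart from the lines.

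Of 49495 probe sets, 45284 had 1 gene symbol in the platform annotation, 1333 had several and 2878 were not listed there. Probe sets with several symbols or none and 6 control probe sets were left out, and the other 45278 were averaged per gene (18244 genes). The 6 arrays were quantile-normalized together and fitted with limma 3.58.1 in R 4.3.3. Genes were called at an adjusted p under 0.05 (Benjamini-Hochberg) and 2-fold. The script was tested on simulated data. The number of arrays limits the precision.

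The members and the 33 gene lists were chosen with earlier results of these data known. Lists are described by counts and medians, with no set test. Named are the 15 genes with the largest differences in each direction whose arrays did not overlap and whose higher line was above background, up to 6 called members of each list in each direction, and fixed members such as ALB and AFP, of which some are given in the text. FGA was named for its motif, after its values were seen. The TCF/LEF motif was added after the data were seen. XIST and Y-linked genes were left out. Alternatives were other normalizations, ranks, the brightest probe set, low-value filters, an intensity trend with robust spread, the methods' t-test, other fold minimums, a fit with the treated arrays, a replicate block and leaving out each array.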

Additional observations from a re-analysis of the deposited data

Results flagged for a closer look

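For the 30 genes with the largest differences, a joint fit of the 12 arrays, control and melatonin-treated ones of both lines normalized together, set the difference between the lines in treated cells against that in control cells (limma interaction, called at an adjusted p under 0.05 and 2-fold). Values are Huh-7 minus HepG2 in treated cells minus the same in control cells, on the log2 scale. The term passed in 5 of the 30 genes, and in 449 of all 18244 genes. The 30 genes were picked for extreme control differences, which the term subtracts, so these shares cannot be compared. In all 5 genes 1 line was not above background in control cells, so the term is not a measured difference of line differences, and the levels of the brighter line are given beside it.

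The term was -2.05 for the elastase inhibitor PI3 (adjusted p = 1.64e-05), which averaged 5.65 ± 0.20 in treated and 7.84 ± 0.12 in control Huh-7 cells (SD, n = 3 each) and was not above background on any HepG2 array. It was -1.87 for CA4 (adjusted p = 1.56e-05), which averaged 6.26 ± 0.050 in treated and 8.22 ± 0.028 in control Huh-7 cells (SD, n = 3 each), again with no HepG2 array above background. For IGFBP1 it was -2.03 (adjusted p = 3.37e-04), with 10.80 ± 0.38 in treated and 8.56 ± 0.14 in control HepG2 cells (SD, n = 3 each). For SERPINA7 it was 1.93 (adjusted p = 2.79e-04), with 6.86 ± 0.33 in treated and 8.74 ± 0.061 in control HepG2 cells (SD, n = 3 each). IGFBP1 and SERPINA7 were not above background on any Huh-7 array. For CA2 the term was -1.09 (adjusted p = 0.0301), but its brighter line differed little, with 8.14 ± 0.057 in treated and 8.42 ± 0.038 in control Huh-7 cells (SD, n = 3 each), and in HepG2 cells 1 of 3 treated arrays and 0 of 3 control arrays were above background.

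Without HepG2 melatonin replicate 1, which stood apart, 4 of these 5 genes passed again, and CA2, at -0.84, was under 2-fold. SPINK1 (1.08) and A2M (1.01) passed in addition, and 536 of all genes did.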

How the results depend on the processing

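The 2832 calls between the control cells ran from 2747 to 3385 over other normalizations, value per gene, filters, variance models, samples in the fit and the replicate block, with which the count was 2832. Same-numbered samples did not deviate together (correlations of 0.002 to 0.054), and the block changed no call of a named gene. A minimum of 4-fold gave 942 calls, 452 higher and 490 lower, and no minimum gave 11924, 6110 higher and 5814 lower. With the values as deposited, 2291 genes were higher in Huh-7 cells and 1010 lower. Leaving out each array in turn gave 2830 to 2853 calls in control cells and 2562 to 2971 in treated cells. With the replicate block, treated cells had 2788 calls.

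No named gene reversed. Of 255 named genes, 12 lost the call as deposited (ABCB4, CCNE1, CD3D, GPC3, IRF9, KLF6, KRT10, PEG10, RBL1, RBL2, SQLE and VIL1), 8 with the brightest probe set, 5 in the fit with the treated arrays and 0 to 4 when an array was left out. By ranks ALB, AFP and MTNR1A, which were under 2-fold, no longer passed the adjusted p. The median of 17 of the 33 lists, among them drug metabolism, transporters, fatty acid and glucose genes, changed sign as deposited, where all genes shifted by 0.33. Those of plasma proteins, p53 targets, beta-catenin targets and interferon-stimulated genes did not. In control cells, a named gene with no array of its dimmer line above background has at most a bound. Genes with 1 or 2 such arrays, such as LGR5, CDX2, CDH2 and KHK, have fitted differences. These also depend on the background level.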
